A study of Mus musculus with 4 samples.

Results

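The genes described here code for the kainate receptor subunits (Grik1, Grik2, Grik3, Grik4 and Grik5), the delta receptor subunit GluD1 (Grid1) and the kainate auxiliary proteins Neto1 and Neto2. They were taken by gene symbol from a table of 17778 genes, and all 8 were found. The table gives mRNA levels in the medial prefrontal cortex (mPFC) of C57BL/6 mice, an inbred strain (substrain C57BL/6J in the methods of the study). The CUMS group (2 libraries) had been through chronic unpredictable mild stress, a schedule of changing mild stressors given to young male mice for several weeks, and only stressed mice that had turned depression-like in behavioral tests were sequenced. The control group (2 libraries) was not stressed. That selection belongs to the CUMS group, so stress and the depression-like state cannot be told apart here, and it is not given whether each library was 1 mouse.

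Only 1 mean per gene and group was deposited, in RPKM, that is reads scaled to gene length and library size. The value of a single library is therefore not known, the spread between mice cannot be given, and no difference has a p-value. The intervals given with each level cover counting error only. They rest on a depth estimated from the table at 7473842 fragments for a control library and 7485030 for a CUMS library. This estimate is lower than the read numbers of the study lead one to assume, and the gap was not resolved. A greater true depth would narrow each interval.

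Kainate receptors are tetrameric ion channels gated by glutamate. GluK1 to GluK3, coded by Grik1 to Grik3, are the primary subunits and form channels on their own, whereas GluK4 and GluK5, coded by Grik4 and Grik5, bind glutamate with high affinity but need a primary subunit to make a channel. In the cortex and hippocampus these receptors act on both sides of the synapse, tuning transmitter release and carrying slow synaptic currents. Neto1 and Neto2 are transmembrane proteins that bind kainate receptors and slow their currents. GluD1 resembles these subunits in sequence, but it works mainly as a synapse organizer that is joined to presynaptic neurexins by secreted cerebellins.

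The subunit genes are close relatives, so the sequences themselves bear on how well reads could be given to 1 of them. The following 60 coding bases end in the stretch for the third transmembrane segment, one of the most conserved parts of the family. Each is written 5′ to 3′ on the coding strand of GENCODE transcripts on GRCm38, the build also called mm10, and capitals mark letters that differ from Grik2.
Grik2: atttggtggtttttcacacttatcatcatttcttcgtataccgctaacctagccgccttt
Grik1: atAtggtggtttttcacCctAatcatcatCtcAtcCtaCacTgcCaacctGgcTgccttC
Grik3: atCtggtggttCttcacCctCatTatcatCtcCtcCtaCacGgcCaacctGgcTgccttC
Grik4: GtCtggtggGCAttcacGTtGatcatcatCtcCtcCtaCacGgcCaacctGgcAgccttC
Grik5: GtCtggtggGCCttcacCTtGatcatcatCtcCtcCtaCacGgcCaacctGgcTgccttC
Grid1: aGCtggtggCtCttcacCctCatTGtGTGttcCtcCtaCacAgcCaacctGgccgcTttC
Of the 60 letters, 12 differ from Grik2 in Grik1, 14 in Grik3, 17 in Grik4, 17 in Grik5 and 19 in Grid1. The Grik2 window lies at chr10:49240690-49240749 on the minus strand, the Grik1 window at chr16:87936009-87936068 on the minus strand, the Grik3 window at chr4:125694009-125694068 on the plus strand and the Grid1 window at chr14:35452308-35452367 on the plus strand, each within 1 coding exon. The windows of Grik4 (chr9:42543869-42547571, minus strand) and Grik5 (chr7:25015919-25022445, minus strand) are split between exons by an intron.

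Even here the genes are told apart by many single letters. The longest identical coding run between a pair of them was 38 bases, between Grik3 and Grik5, and it lies in this same region. The longest coding runs of Grik1 with Grik2 and of Grik4 with Grik5 were 35 bases each, and they are printed because they are the stretches where reads of these pairs are hardest to separate.
Grik3 and Grik5: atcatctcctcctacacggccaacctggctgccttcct
Grik1 and Grik2: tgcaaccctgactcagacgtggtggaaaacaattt
Grik4 and Grik5: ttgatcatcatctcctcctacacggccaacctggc
No stretch of 50 coding bases of the 5 Grik genes or of Grid1 occurred in the transcripts of any other gene. Over the whole transcript, 0.342% of the 50-base stretches of Grik2, 0.448% of those of Grik3, 0.343% of those of Grik4 and 0.564% of those of Grid1 were found in transcripts of other genes, and none of those of Grik1 or Grik5. The shared stretches of the former 4 genes were not within their coding parts. An exon of Grik4 also overlaps the annotated gene Gm24420, and the use of strand in the counting is not given in the sources used here.

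Grik5 was by far the most abundant member. Its level was 104.705 RPKM in control (interval 102 to 107) and 109.33 RPKM in CUMS (107 to 112). This put Grik5 at rank 697 of the 17778 genes in control. The gene spans chr7:25009849-25075694 (RefSeq, GRCm38.p6).

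Grik4, the other secondary subunit, was much lower. It stood at 9.96 RPKM in control (9.12 to 10.8) and at 10.8 RPKM in CUMS (9.93 to 11.7), and it spans chr9:42518182-42945000. Both secondary subunits thus had the higher mean in CUMS, and for both the intervals of the group means overlap. Overlap of such intervals does not show equal levels. The interval of the Grik5 ratio, given below, excludes equal means as far as counting error goes.

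Among the primary subunits Grik3 led. It stood at 27.04 RPKM in control (26.2 to 27.9) and 27.48 RPKM in CUMS (26.6 to 28.4). Grik2 stood at 8.195 RPKM in control (7.55 to 8.88) and 8.29 RPKM in CUMS (7.64 to 8.99). For both genes the intervals of the groups overlap, and each mean lies within the interval of the other group.

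Grik1 was the least abundant member, at 3.05 RPKM in control (2.61 to 3.56) and 2.64 RPKM in CUMS (2.23 to 3.12). It is the only kainate subunit with the lower mean in CUMS, and its intervals overlap too. The primary subunit genes span chr16:87895901-88290863 (Grik1), chr10:49093680-49790161 (Grik2) and chr4:125490259-125714173 (Grik3).

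Grid1 stood at 20.775 RPKM in control (19.6 to 22.1) and 20.415 RPKM in CUMS (19.2 to 21.7), next in order below Grik3. The intervals of the groups overlap. Grid1 spans chr14:34820003-35583387.

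Of the auxiliary proteins, Neto1 was the more abundant. It stood at 12.915 RPKM in control (11.97 to 13.93) and 11.775 RPKM in CUMS (10.9 to 12.7). Neto2 stood at 7.705 RPKM in control (7.12 to 8.32) and 7.295 RPKM in CUMS (6.74 to 7.90). Both were lower in CUMS, with overlapping intervals. Of the 50-base stretches of Neto1, 2.06% were shared with AC113599.1, a gene that overlaps its exons, whereas Neto2 shared none with any other gene. Unlike in the Grik genes and Grid1, the shared Neto1 stretches all lie in the coding part, 171 of its 1550 coding stretches. Neto1 spans chr18:86394815-86506721 and Neto2 chr8:85636718-85700952.

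**Figure D1:**
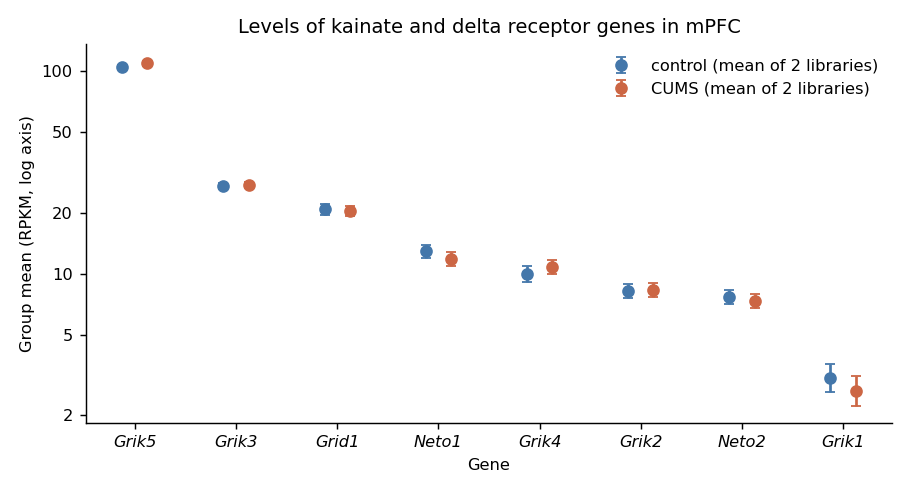
Group means of the 8 genes in RPKM on a log axis, in order of the control level, for control (blue) and CUMS (orange), each the mean of 2 libraries. Bars are 95% intervals of counting error and do not show the spread between mice. Grik5 lies above 100 RPKM in both groups and Grik1 near 3 RPKM.

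The order of the levels was the same in both groups: Grik5, Grik3, Grid1, Neto1, Grik4, Grik2, Neto2 and Grik1. Grik5 exceeded Grik1 34.3-fold in control and 41.4-fold in CUMS, and exceeded Grik3, next in order, 3.87-fold and 3.98-fold. Neighbours whose counting intervals overlapped were Grik2 and Neto2 in both groups, and Neto1 and Grik4 in CUMS. Overlap alone does not show that 2 levels are equal.

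Levels per length depend on the length assigned to each gene by the authors. For Grik1, Grik3, Grik5 and Neto2 that length was between 95.1% and 100.6% of the longest GENCODE transcript. It was 60.2% for Grid1, 59.2% for Grik4, 50.9% for Grik2 and 42.3% for Neto1. The place of these 4 genes in the order is therefore less sure than their ratio between groups, in which the length cancels.

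The secondary subunits made up most of the kainate subunit mRNA. Of the summed level of Grik1 to Grik5, 152.95 RPKM in control and 158.54 RPKM in CUMS, Grik5 held 68.5% in control (67.6 to 69.3) and 69.0% in CUMS (68.1 to 69.8). Grik3 held 17.7% and 17.3%, Grik4 6.51% and 6.81%, Grik2 5.36% and 5.23%, and Grik1 1.99% and 1.67%. The counting intervals of the groups overlapped for each of the 5 shares. In estimated fragments, which are not divided by length, Grik5 held 55.5% in control and 56.1% in CUMS, and the long Grik3 transcript 32.9% and 32.4%.

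**Figure D2:**
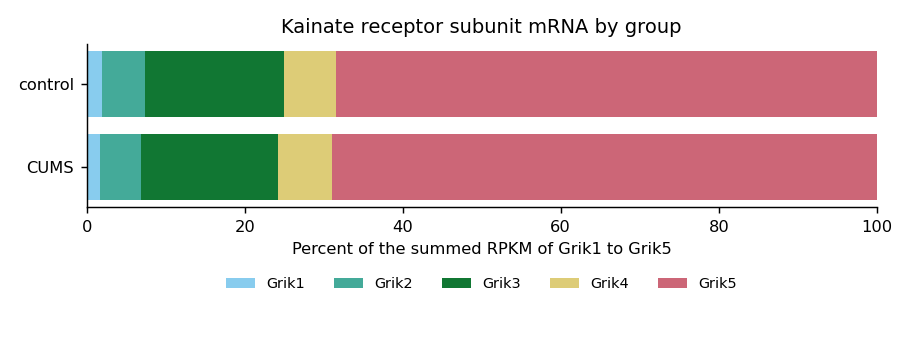
Share of each subunit in the summed RPKM of Grik1 to Grik5, in percent, for the control and CUMS group means. The bars of both groups are divided alike, with Grik5 at 68.5% in control and 69.0% in CUMS.

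The ratio of secondary to primary subunit mRNA was 2.995 in control and 3.13 in CUMS. The difference was 0.06 on the log2 scale, with a counting interval from -0.02 to 0.14. The ratio of Neto2 to Neto1 was 0.597 in control and 0.620 in CUMS, a log2 difference of 0.05 (-0.17 to 0.28). Neither ratio moved beyond counting error.

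Between the groups the 8 genes hardly differed. The largest fold between group means was 1.16, for Grik1, and none passed 1.5, the fold that the study required of a changed gene. Of all genes 19.1% passed that fold in either direction, and of the 9397 genes that reached 5 RPKM in a group, where 7 of the members lie, 1.6% did. A count of 0 among 8 genes is near that second background.

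Of the members 4 were higher and 4 lower in CUMS. Their median log2 ratio of CUMS over control was -0.0043, and that of all 17778 genes was -0.02. Without regard to direction, the median size of the log2 ratio was 0.07 for the members and 0.10 for genes of at least 5 RPKM.

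**Figure D3:**
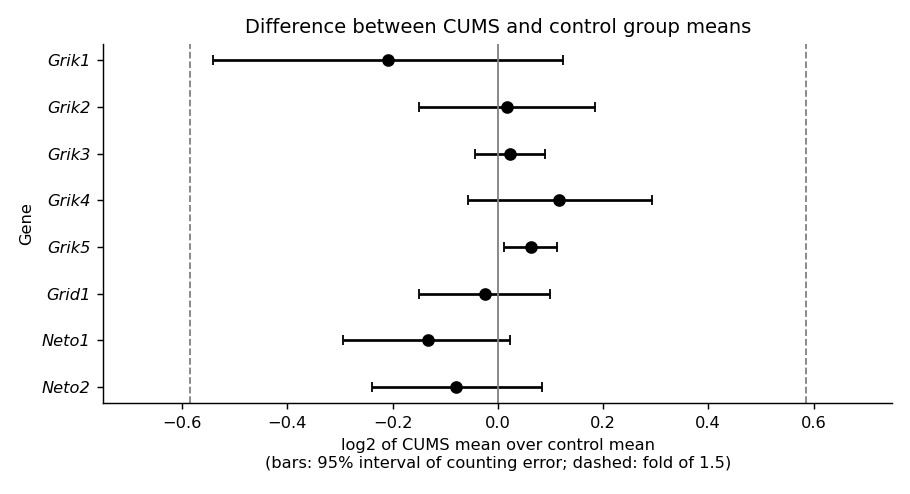
Log2 ratio of CUMS over control for each of the 8 genes, with 95% intervals of counting error (bars). Dashed lines mark a fold of 1.5 in either direction. All 8 points lie between the dashed lines, and only the interval of Grik5 lies off 0.

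Grik5 was the only member whose interval lay off 0. It was 4.42% higher in CUMS (0.777 to 8.18), a log2 ratio of 0.06 (0.01 to 0.11) that rests on an estimated 6043 fragments in control and 6319 in CUMS. An interval off 0 in either direction was met by 24.2% of all genes, and one above 0 by 10.3%, so that 1 of 8 is near the background. The call of Grik5 was lost with a 99% interval or at 0.5 times the estimated depth, and at double that depth or after centring on genes of similar GC content the interval of Neto1 lay off 0 as well. Deeply counted genes have narrow intervals: among 1231 genes whose mean level lay within a factor of 2 of Grik5, 53.4% had an interval off 0 and 60.5% had a larger log2 ratio in size.

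For the other kainate subunits the log2 ratio was 0.12 for Grik4 (-0.06 to 0.29), 0.02 for Grik3 (-0.04 to 0.09), 0.02 for Grik2 (-0.15 to 0.18) and -0.21 for Grik1 (-0.54 to 0.12). The counting interval of the well-counted Grik3, with 3581 fragments in control and 3645 in CUMS, ran from -2.97% to 6.46%. For Grik1, with 165 and 143 fragments, it ran from -31.3% to 8.92%. Neither interval holds the spread between mice, so neither bounds the true difference between the groups.

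Grid1 had a log2 ratio of -0.03 (-0.15 to 0.10). It was -0.13 for Neto1 (-0.29 to 0.02) and -0.08 for Neto2 (-0.24 to 0.08). Set beside genes of like level, 42.4% had a larger log2 ratio in size than Neto1, 44.3% than Grik1, 49.7% than Grik4, 66.6% than Neto2, 85.0% than Grid1, 85.6% than Grik3 and 92.0% than Grik2. None of the 8 thus had an unusually large ratio for its level.

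**Figure D4:**
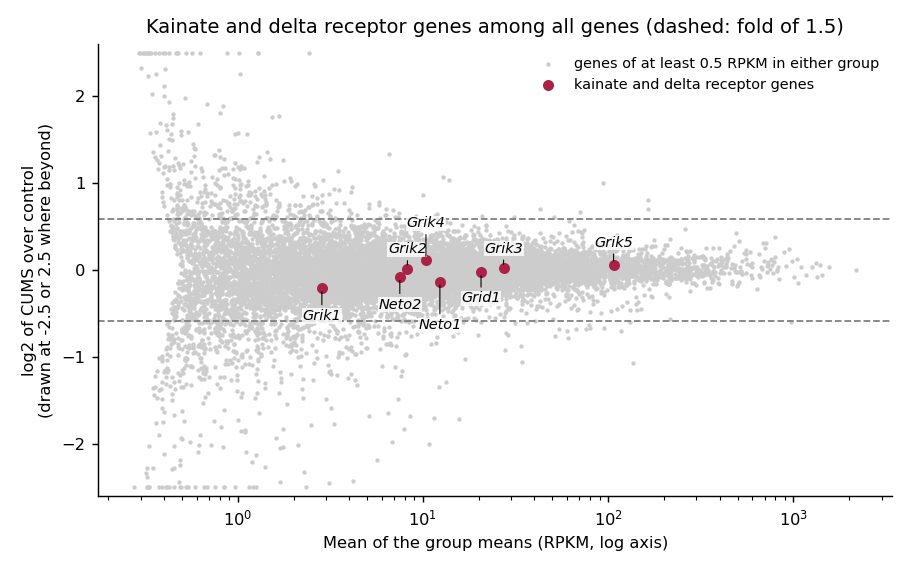
Log2 ratio of CUMS over control against the mean of the group means (RPKM, log axis) for genes that reached 0.5 RPKM in a group (grey) and the 8 receptor genes (red). Dashed lines mark a fold of 1.5, and the red points lie inside the grey cloud near 0.

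The proteins that work with these receptors were described from lists of partners. Of 14 genes for kainate receptor partners 9 were higher and 5 lower in CUMS, with a median log2 ratio of 0.02, and the intervals of 4 lay above 0 and of 2 below, where 10.3% of all genes had an interval above 0 and 13.9% one below. The highest log2 ratio among those of at least 5 RPKM was that of C1ql3, a secreted synaptic protein that binds kainate receptors. It stood at 49.66 RPKM in control and 73.305 RPKM in CUMS, a log2 ratio of 0.56 (0.49 to 0.64). The lowest was that of Adarb1, an enzyme that edits glutamate receptor transcripts, at 41.405 RPKM in control and 37.18 RPKM in CUMS (log2 ratio -0.16, -0.22 to -0.09). Only C1ql2, a relative of C1ql3, passed a fold of 1.5, which 19.1% of all genes did. It is named after its values were seen, at 1.15 RPKM in control against 0.45 RPKM in CUMS. Its log2 ratio of -1.35 (-2.37 to -0.44) rests on an estimated 36 fragments in control and 14 in CUMS.

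Several genes on the list of delta receptor partners were lower in CUMS although Grid1 itself hardly differed. The list is not confined to partners of GluD1. Of the 7 delta receptor partners described here, 4 had an interval below 0, against 13.9% of all genes, and none had one above. Their median log2 ratio was -0.33, and that of all genes -0.02. The list is not complete, so this count describes these 7 genes only. Cbln2, a cerebellin of the cortex, stood at 16.28 RPKM in control and 12.925 RPKM in CUMS (log2 ratio -0.33, -0.52 to -0.15). The presynaptic neurexins Nrxn2, at 89.01 and 80.69 RPKM (-0.14, -0.19 to -0.10), and Nrxn3, at 19.485 and 18.435 RPKM (-0.08, -0.17 to 0.01), differed less. A fold of 1.5 was passed by 3 of the 7 and by 19.1% of all genes. These 3 genes all stayed below 5 RPKM in both groups, and not every counting interval among them lay below 0. The largest fold was that of Cbln4, which is named after its values were seen. Cbln4 stood at 4.405 RPKM in control and at 1.58 RPKM in CUMS, a log2 ratio of -1.48 (-1.91 to -1.07).

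The other glutamate receptors give the scale of these levels. The summed level of the 4 AMPA receptor subunits was 178.105 RPKM in controls against 171.975 RPKM in CUMS, and that of the 7 NMDA receptor subunits 241.675 and 234.78 RPKM. The kainate subunits made up 25.8% of the summed level of AMPA, NMDA and kainate subunits and Grid1 in control and 27.1% in CUMS, and Grid1 3.50% and 3.49%. The NMDA share leans on Grin1, the obligatory subunit, at 209.105 RPKM in control and 207.45 RPKM in CUMS. Grin2a and Grin2b, the main partners of Grin1 in the forebrain, stood at only 1.045 and 0.56 RPKM in control. The lengths used for them were 30.8% and 31.2% of their longest GENCODE transcripts, so that the shares between families are unsure.

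In their ratios between groups the AMPA subunits ran from -0.09 (Gria1, 97.52 RPKM in control and 91.845 in CUMS) to 0.11 (Gria4, 15.62 and 16.855 RPKM) on the log2 scale. Gria2 had a log2 ratio of -0.05 and Gria3 of -0.01, and 3 of the 4 subunits were lower. The NMDA subunits of at least 5 RPKM ran from -0.45 (Grin2d, 6.61 and 4.85 RPKM) to 0.04 (Grin3a, 7.26 and 7.465 RPKM), with Grin2c at -0.34 and Grin1 at -0.01. Grin3b, below 1 RPKM, was the only subunit of either family past a fold of 1.5, which 19.1% of all genes passed. Its log2 ratio of -1.07 (-2.64 to 0.28) rests on an estimated 15 and 7 fragments, and its interval includes 0. Counting intervals lay below 0 for 1 of the 4 AMPA and 2 of the 7 NMDA subunits, and above 0 for none. Of all genes 13.9% had an interval below 0 and 10.3% one above. The median log2 ratio was -0.03 for AMPA and -0.22 for NMDA subunits.

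Of 12 AMPA auxiliary subunits 5 were higher and 7 lower, with a median log2 ratio of -0.01. Cnih3, a cornichon, was highest at 35.09 RPKM in control and 44.285 RPKM in CUMS (log2 ratio 0.34). Cacng5 was lowest at 10.74 and 5.52 RPKM (-0.96), and it alone passed a fold of 1.5. Of 7 metabotropic glutamate receptors 4 were higher and 3 lower, with a median of 0.22. They ran from -0.33 for Grm4 (10.04 and 7.975 RPKM) to 0.45 for Grm3 (12.435 and 17.04 RPKM), and none passed a fold of 1.5. Counting intervals lay above 0 for 4 of these 7 receptors and below 0 for 2. Among the 12 AMPA auxiliary subunits, 3 had an interval above 0 and 3 had one below. Of all genes 10.3% had an interval above 0 and 13.9% one below, and 19.1% passed a fold of 1.5. Whether the 8 kainate and delta receptor genes differ from these families could not be tested with 1 mean per group.

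**Figure D5:**
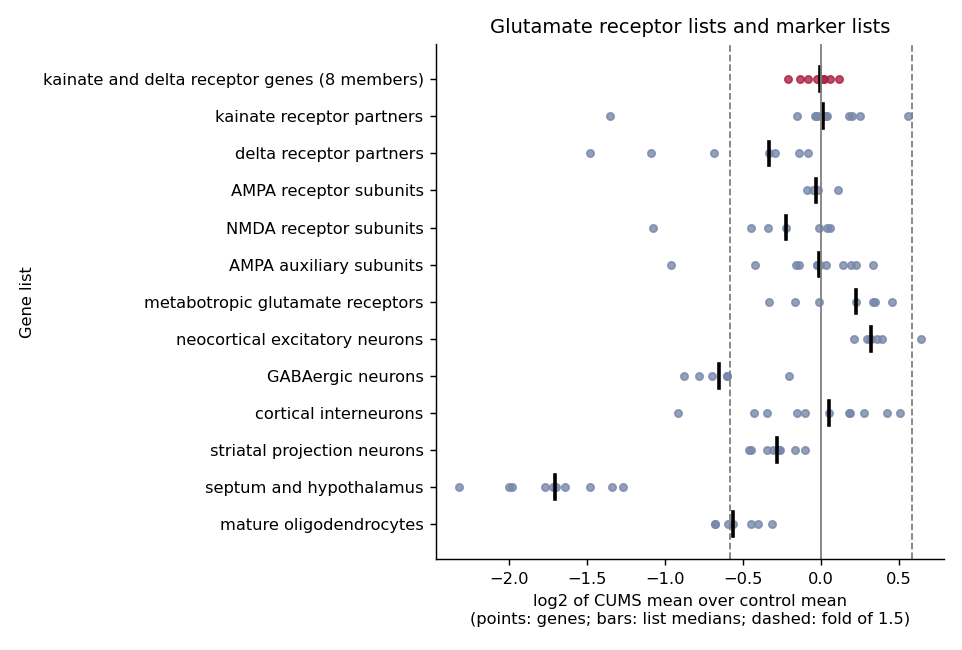
Log2 ratio of CUMS over control for single genes (points) and list medians (black bars) of the 8 receptor genes (red), their partners, other glutamate receptors and marker genes of cell types and neighbouring regions (blue). Dashed lines mark a fold of 1.5. The red points gather at 0, whereas the 10 markers of septum and hypothalamus lie at -1.27 or lower. Most of those 10 genes had already been listed as lowered by the study.

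The tissue label was set beside markers, none of which was listed at 0. Most septum and hypothalamus markers are genes that the study itself listed as changed in these data. So are some of the GABAergic, olfactory bulb, oligodendrocyte and red blood cell markers. The direction of those genes was known beforehand, so their counts are no independent check of the tissue. The 7 markers of neocortical excitatory neurons summed to 1569 RPKM in control and 1885 RPKM in CUMS, and 7 of 7 were higher in CUMS (median log2 ratio 0.33). In contrast, 6 of 6 markers of GABAergic neurons were lower (454 and 319 RPKM summed, median -0.65), as were 9 of 9 of striatal projection neurons (556 and 458 RPKM, -0.28), 10 of 10 of septum and hypothalamus (123 and 38.6 RPKM, -1.71), 6 of 7 of olfactory bulb (37.9 and 18.6 RPKM, -1.09) and 7 of 7 of mature oligodendrocytes (1866 and 1266 RPKM, -0.56). The medians of these lists lay further from 0 than that of the receptor genes (-0.0043). Of all genes 52.7% were lower in CUMS. Because several of the lists hold genes already known to be lowered in these data, no conclusion is drawn from this contrast. In bulk tissue, fewer cells of a type and less RNA per cell cannot be told apart. The part of these marker differences in the levels of the receptor genes and their partners was not tested.

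Other marker lists moved less or were split. Cortical interneurons are GABAergic neurons too, and their log2 ratios ran from -0.92 (Calb2) to 0.51 (Vip). Lower values in the 6 GABAergic markers above were thus not shared by all markers of this cell class. The 11 markers of cortical interneurons were higher in 6 and lower in 5 genes (median 0.05), the 6 deep-layer markers higher in 2 and lower in 4 (-0.03), and the 6 astrocyte and 6 microglia markers each higher in 4 and lower in 2 (0.06 and 0.08). Markers of oligodendrocyte precursors were lower in 5 of 6 (-0.31), those of endothelial cells in 3 of 4 (-0.22), and those of red blood cells were higher in 4 of 4 (0.83).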

How the data were processed

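The authors sequenced poly(A) RNA as paired reads, aligned them to mm10 with TopHat 1.0.12 and Bowtie 0.11.3, kept uniquely aligned reads and deposited RPKM values averaged over the libraries of each group, with the length of each gene. Annotation and strand use are not given in the sources used here. The deposited table also holds a log2 ratio, a direction and a NOISeq probability for each gene, which are the authors' own comparison and were not used. The planned limma test needs values per library and could not be run.

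An exact 0 was listed as 0.01 RPKM, for 590 control and 619 CUMS means. Depth was estimated from genes shorter than 1000 bases with a product of mean and length under 350. These products came in steps of 66.9 (control) and 66.8 (CUMS), and 87.9% of 406 and 87.5% of 392 values were whole multiples of the step to within 0.15. Levels were turned into fragments with these steps. Log2 ratios carry exact Clopper-Pearson 95% intervals, levels exact Poisson intervals, and both cover counting error only, with PCR duplicates left in. Shares and ratios carry delta-method intervals. No level of a member was at the floor of 3 fragments. The method was tested on simulated data that held counting error alone, at a set depth near the estimate. That test cannot speak to the true depth or to the spread between mice.

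Genes of like level had a mean within a factor of 2. Named were the 8 members, the AMPA and NMDA subunits, and in each list the highest and lowest log2 ratio among genes of at least 5 RPKM (each such gene in lists with under 4). For the delta receptor partners, 2 genes are not reported here, and they were left out of that list without regard to their values. The members and lists were chosen with earlier results of these data known. Coordinates are from the RefSeq table of GRCm38.p6, sequences and transcript lengths from GENCODE on GRCm38. The work used Python 3.11.15, scipy 1.17.1 and Biopython 1.88.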

Additional observations from a re-analysis of the deposited data

How the results depend on the processing

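The direction of 7 of the 8 log2 ratios held under both other scalings, a pseudocount of 0.5 RPKM and centring on genes of similar GC content, the last chosen after seeing the data. The ratio of Grik2 ran from -0.02 to 0.03 and was negative only after GC centring, which made 5 members lower. The number of members with an interval off 0 was 0 at 0.5 times the estimated depth or with a 99% interval, and 2 (Grik5 and Neto1) at double that depth or after GC centring, against 1. The count of members past the fold threshold stayed at 0 with a lower and a higher threshold. In control Grik5 held 55.5% of the kainate fragments, against 68.5% of the RPKM. Rescaling to a median of 0 shifted log2 ratios by 0.02.

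No paired analysis was possible because each group is given as its mean alone. Leaving out a library was not run either.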

Other observations

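The summed level of Neto1 and Neto2 relative to that of Grik1 to Grik5 was formed after the values of these genes had been seen. The ratio was 0.135 in control and 0.120 in CUMS, a log2 difference of -0.16 with a counting interval from -0.29 to -0.04. The spread of this ratio between mice is unknown. The ratio of Grik1 to Grik2 was 0.372 and 0.318, a log2 difference of -0.22 (-0.59 to 0.14).

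Transcript GC content divides the members. Neto2 (36.5%), Grik2 (37.9%) and Neto1 (39.6%) belong to the lowest of 10 GC classes of the genes that reached 5 RPKM, whose median log2 ratio was 0.04, and Grik5 (62.3%) to the highest class, whose median was -0.02. Of the 8 members 6 had a log2 ratio opposite in sign to the median of their class, and 2 (Grik2 and Grid1) had the same sign. The class medians all lay between -0.04 and 0.04, and the share of all genes with the opposite sign was not computed. The count is therefore not read as a pattern of the members. GC content was found for 94.8% of those genes and for all 8 members.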
